A study of Homo sapiens with 12 samples.

Results

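The acute transcriptional response to stem cell factor (SCF, the ligand of the Kit receptor tyrosine kinase) was described in HUDEP-2 cells that carried a control guide RNA. HUDEP-2 is an immortalised human erythroid precursor line derived from umbilical cord blood, and its growth medium holds SCF, erythropoietin, dexamethasone and doxycycline. All cells of the comparison expressed dCas9-KRAB, the repressor used for CRISPR interference, from a lentivirus and were sorted on GFP. They also carried sgControl, a scrambled guide. Growth factors were withheld for 5 h, after which either PBS or 50 ng/mL of SCF was added for 1 h. The members were thus 6 libraries, 3 replicates labelled sgControl SCF and 3 labelled sgControl PBS, out of 12 in the series, in which the other 6 carried a guide against an element near EGR1 (sgEGR1). Of 54628 genes listed, 15492 passed the filter on low counts and were compared. Because the PBS cells were starved too, the comparison is that of starved cells with starved cells given 1 growth factor.

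Binding of SCF makes Kit dimerise and phosphorylate itself, and this engages the RAS and ERK kinase cascade, the PI3K and AKT pathway and STAT5. ERK acts on ETS family partners of serum response factor (SRF), which then switch on immediate early genes within minutes and without new protein synthesis. AKT phosphorylates FOXO factors, which leave the nucleus, so that genes FOXO keeps on in starved cells are no longer driven. In erythroid precursors Kit signalling sustains expansion, and its loss accompanies terminal maturation.

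The sgControl libraries held 25783497 to 27307620 counts after PBS and 30044872 to 31559362 after SCF, so a floor of 3 counts corresponded to between 0.0938 and 0.118 counts per 1000000 counts of the library (CPM, scaled by TMM factors). All 12 markers fixed for erythroid precursors were measured, and their summed level was 23220 to 26670 CPM after PBS and 22660 to 26170 CPM after SCF. Of 12 megakaryocyte markers 5 were tested, the summed level was 40.1 to 55.7 CPM after PBS and 44.9 to 54.6 CPM after SCF, and the defining PF4, PPBP, GP9, GP6, VWF and SELP were at 0 counts. Of 12 monocyte and granulocyte markers 2 were tested, at 2.37 to 3.87 CPM after PBS and 2.07 to 3.38 CPM after SCF, with MPO and ELANE at 0. None of 8 lymphocyte markers passed the filter. Of 8 mast cell and basophil markers 5 were tested, with CMA1 and FCER1A at 0, and without GATA2, which is also an erythroid factor, their sum was 332, 153 and 147 CPM after PBS and 346, 161 and 148 CPM after SCF in replicates 1, 2 and 3. Replicate 1 was the highest on each treatment, and within each replicate number the sums were close. In bulk RNA, fewer cells of a type and less RNA per cell cannot be told apart. The labels do not say what the replicate number shares, and replicate 1 of each group stood apart in expression, so the counts are given with and without a term for replicate 1. Its part in the response was not tested beyond those fits.

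SCF raised more genes than it lowered. In edgeR's quasi-likelihood test, 448 genes passed a Benjamini-Hochberg adjusted p of 0.05, of which 328 rose (2.12% of the genes tested) and 120 fell (0.775%). The libraries of the groups did not overlap in CPM for any of these 448 genes, against 19.6% of all genes tested. Changes were mostly small: the median log2 fold change was 0.383 among genes that rose and -0.405 among those that fell, against -0.006 over all genes. Of the genes that rose, 27 did so at least 2-fold and 255 by less than 1.5-fold. Of those that fell, 17 changed at least 2-fold and 78 by less than 1.5-fold. At an unadjusted p of 0.05, 2222 genes passed.

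**Figure D1:**
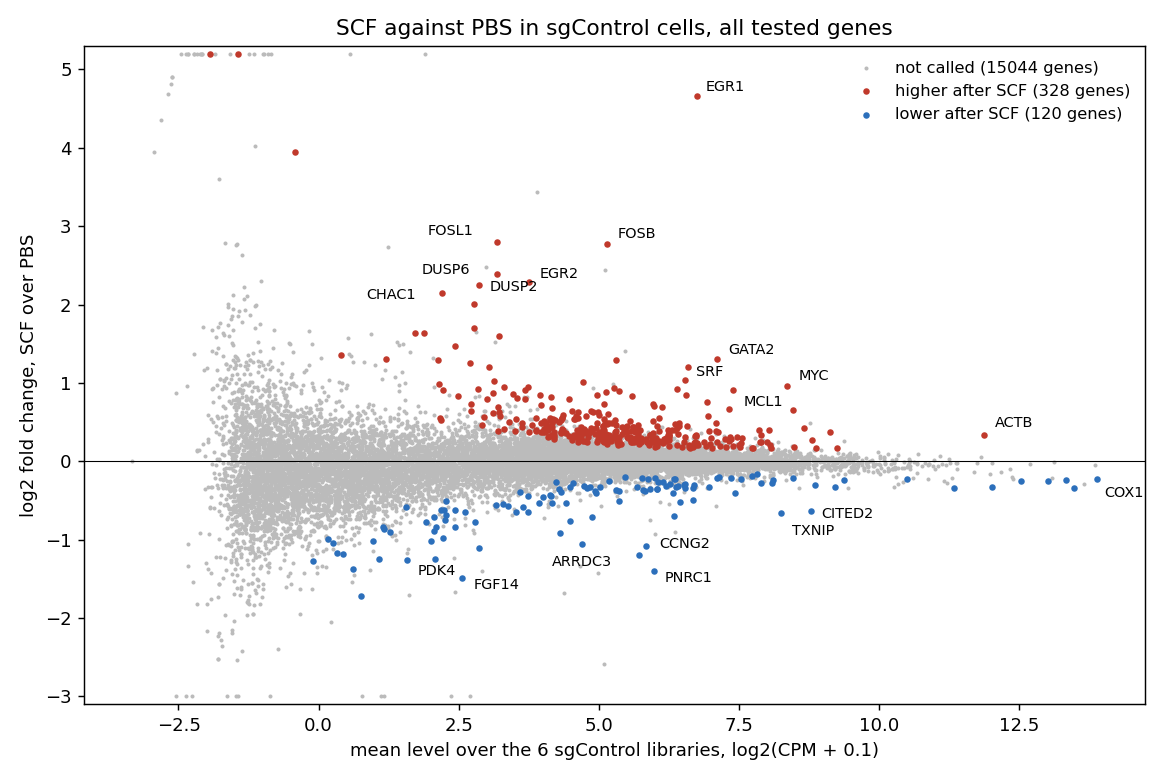
Log2 fold change of SCF over PBS (y axis) against the mean level over the 6 sgControl libraries on the log2(CPM + 0.1) scale (x axis), 1 point per tested gene. The 328 genes that rose are red, the 120 that fell are blue, and 37 genes beyond the range from -3 to 5.2, of which 2 were called, are drawn at its edge. EGR1 lies far above all other called genes of similar level, and the most abundant blue points are transcripts of the mitochondrial genome.

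By annotation, most called genes were protein coding. Among the genes that rose, 97.3% were protein coding, against 75.8% of those that fell and 76.9% of all tested. Of the 120 genes that fell, 13 were long noncoding RNAs and 6 were pseudogenes, against 5 and 1 of the 328 that rose. Shares of these classes over all tested genes are not given, so the counts are no trait of the genes that fell. The genomic span in RefSeq had a median of 16.4 kb for genes that rose and 13.9 kb for genes that fell, against 23.5 kb over all tested genes. A span under 10 kb was found for 33.2% and 40.7% of them, against 29.9% of all. The median level was 37.4 CPM for genes that rose and 31.6 CPM for genes that fell, against 15.9 CPM for all. Exons of 178 of 327 matched genes that rose and of 57 of 100 that fell overlap another gene in the GENCODE annotation, and counts of such genes are uncertain because whether counting used strand is not given. Many calls were lost when 1 library was left out. The test was repeated without each of the 6 sgControl libraries in turn (leave-one-out fits), and 128 of the 328 and 27 of the 120 were called in all 6. The total fell to 194 genes without PBS replicate 3 and to 361 without PBS replicate 1. Each such fit also has fewer libraries, and whether a call was lost to that or to 1 unusual library was not tested. Medians of the gene lists below moved too: in 40 of 48 lists with a tested member at least 1 of these fits moved the median by over 1.5 times or turned its sign, and the exceptions were the immediate early, SRF and actin, FOXO, ribosome biogenesis, NF-kB, nuclear transport, replication-dependent histone and mitochondrial chromosome lists.

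A term that separates replicate 1 of every group from replicates 2 and 3 raised the count to 1289 genes, 818 higher (5.28% of those tested) and 471 lower (3.04%). All 448 genes were called again, and 841 were added, 490 higher and 351 lower. The added genes had smaller changes, with medians of 0.242 and -0.268. The groups did not overlap for 635 of the 841, against 19.6% of all genes tested, but a test on the same libraries had picked these genes. Libraries of the sgEGR1 cells also entered the estimate of the spread and of the replicate 1 difference. In edgeR's test within those cells, 468 of the 841 (55.6%) had an unadjusted p under 0.05 in the same direction. A further 2 had such a p in the opposite direction. Over all tested genes the share with such a p in either direction was 15.0%. FOS was among the added genes. Its level was 21.5, 5.24 and 5.2 CPM after PBS and 146, 15.5 and 12 CPM after SCF in replicates 1, 2 and 3. Replicate 1 was far above the others on either treatment, yet within each replicate number the SCF library was the higher, while the groups overlapped. Here and below, ± gives an approximate SE: the absolute log2 fold change divided by the square root of the F statistic. That F compares 3 with 3 libraries, but its spread was estimated from the libraries of both guides. The log2 fold change of FOS was 2.44 ± 1.18 with an adjusted p of 0.38 without the term. With the term it was 2.07 ± 0.24 with an adjusted p of 0.00017, and over the alternatives the adjusted p ran from 2.71e-07 to 0.938.

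**Figure D2:**
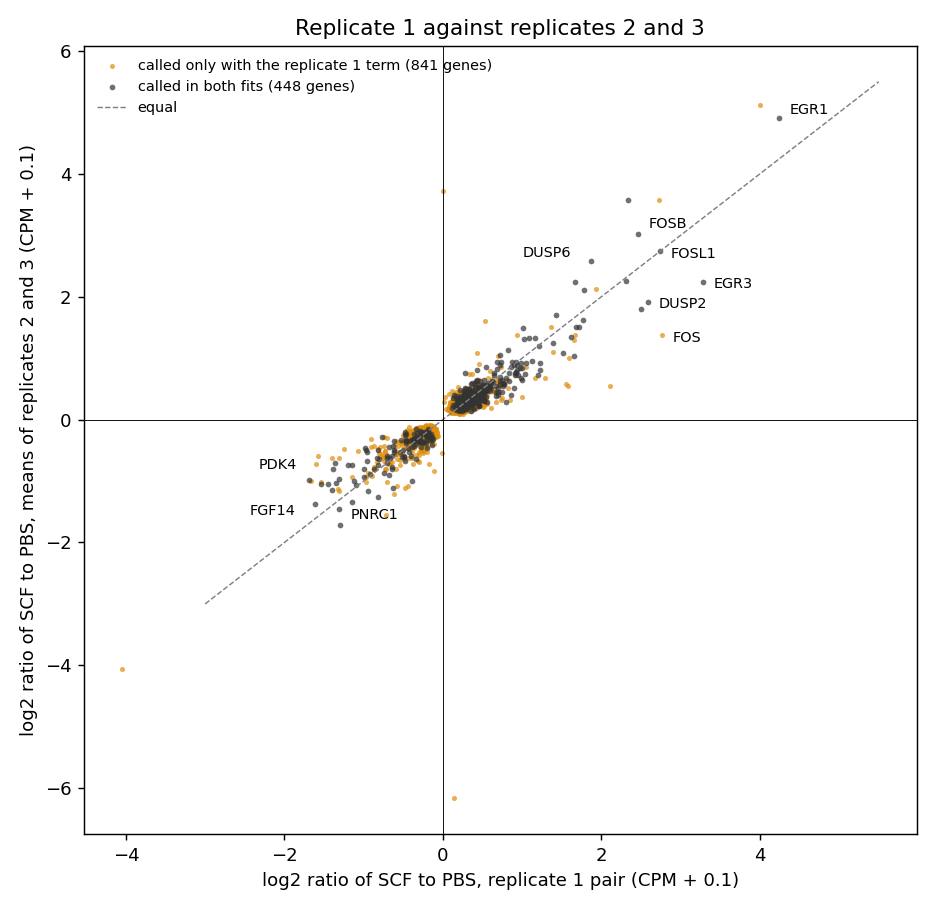
Log2 ratio of SCF to PBS in the replicate 1 pair (x axis) against that of the means of replicates 2 and 3 (y axis), both with 0.1 CPM added, for the 448 genes called in both fits (dark) and the 841 called only with the replicate 1 term (orange). The dark points all lie in the upper right or lower left quadrant, which is fixed by groups that do not overlap, and FOS lies below the line of equal ratios because its ratio was larger in replicate 1.

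Immediate early transcription factors formed the group with the largest share of calls. Of 24 listed genes 21 were tested, and 10 rose (47.6%) while 0 fell. The median log2 fold change of the 21 was 0.737, and it stayed at 0.737 with EGR3 set to its bound (below). EGR1, a zinc finger factor and the gene with the largest change above 2 CPM, was at 10.9, 5.99 and 7.45 CPM after PBS and 208, 239 and 171 CPM after SCF. The lowest SCF library was far above the highest PBS library, and the fold change was 25.31 (4.66 ± 0.55, adjusted p = 0.000834). EGR2, its close relative, was at 3.65, 5.28 and 4.65 CPM after PBS and 18.5, 23.7 and 24.3 CPM after SCF (2.29 ± 0.22, adjusted p = 0.000196). EGR3 had 0 counts in every PBS library and 28, 10 and 13 counts after SCF, which puts it at least 4.73-fold higher when PBS is set to a floor of 3 counts per library.

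The Fos and Jun families, whose proteins pair to form the AP-1 factor, moved unevenly. FOSL1 was at 2.31, 2.44 and 1.98 CPM after PBS and 16, 15.4 and 15.4 CPM after SCF. Its replicates were tightly grouped on either side, and it had the smallest adjusted p of the comparison (2.80 ± 0.13, adjusted p = 9.57e-07). FOSB was at 13.5, 6.1 and 7.25 CPM after PBS and 74.7, 62.8 and 47.2 CPM after SCF (2.77 ± 0.34, adjusted p = 0.00108), and here replicate 1 was the highest on each treatment. JUNB, the most abundant of the called AP-1 genes by counts, was at 261, 291 and 272 CPM after PBS and 442, 456 and 397 CPM after SCF and rose 1.57-fold (adjusted p = 0.000345). FOSL2 passed only with the replicate 1 term (0.66 ± 0.082, adjusted p = 0.000254, against 0.0968 without it). JUN (0.37 ± 0.43, adjusted p = 0.802) and JUND (0.34 ± 0.20, adjusted p = 0.486) did not pass in either fit.

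SRF, the factor that reads many of these promoters, was itself at 64.3, 57 and 60.8 CPM after PBS and 114, 132 and 128 CPM after SCF (1.04 ± 0.089, adjusted p = 9.66e-05). The 3 SCF libraries lay well above the 3 PBS libraries. IER2 was at 62.2, 57.5 and 55.1 CPM after PBS and 144, 145 and 115 CPM after SCF (1.21 ± 0.12, adjusted p = 0.000196). Among Krüppel-like factors, KLF6 (0.51 ± 0.059, adjusted p = 0.000823), KLF10 (0.74 ± 0.17, adjusted p = 0.0387) and KLF16 (0.47 ± 0.10, adjusted p = 0.0312) rose, which made 3 of 17 tested, while KLF10 was called in only 1 and KLF16 in 2 of the 6 leave-one-out fits. NR4A1, an orphan nuclear receptor, was at 2.2, 0.827 and 1.24 CPM after PBS and 5.82, 3.47 and 2.8 CPM after SCF and passed only with the term (adjusted p = 0.000316, against 0.0836). IER5 (-0.26 ± 0.10, adjusted p = 0.216) did not pass. Exons of EGR2, EGR3, JUNB, IER2, KLF16 and NR4A1 overlap another annotated gene.

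Promoters of this group are shown with the CArG box, the SRF binding motif, in capitals. RefSeq promoters on GRCh38.p14, from 250 bases before to 50 after the gene start, were matched for 10992 of the tested genes, and a CArG box on either strand was found in 0.955% of them. It was present in 2.23% of 269 matched genes that rose and 3.61% of 83 that fell, and in 2 of 17 matched immediate early genes. The 4 shown are those of called members of the immediate early and SRF target lists with a match, and only the 250 bases before the start are printed: EGR1 (chr5:138465229-138465478, plus strand), SRF (chr6:43171019-43171268, plus strand), TPM4 (chr19:16067288-16067537, plus strand) and CNN2 (chr19:1026358-1026607, plus strand).
EGR1: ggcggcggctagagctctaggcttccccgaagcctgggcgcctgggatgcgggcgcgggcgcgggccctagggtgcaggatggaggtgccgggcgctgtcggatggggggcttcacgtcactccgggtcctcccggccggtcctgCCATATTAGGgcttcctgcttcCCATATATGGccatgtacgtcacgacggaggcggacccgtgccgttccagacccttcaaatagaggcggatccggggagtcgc
SRF: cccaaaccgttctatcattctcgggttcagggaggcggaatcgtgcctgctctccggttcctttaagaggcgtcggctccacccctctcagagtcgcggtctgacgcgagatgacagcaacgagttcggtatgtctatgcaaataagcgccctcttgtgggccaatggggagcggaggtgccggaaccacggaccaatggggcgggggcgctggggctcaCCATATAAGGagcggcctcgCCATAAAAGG
TPM4: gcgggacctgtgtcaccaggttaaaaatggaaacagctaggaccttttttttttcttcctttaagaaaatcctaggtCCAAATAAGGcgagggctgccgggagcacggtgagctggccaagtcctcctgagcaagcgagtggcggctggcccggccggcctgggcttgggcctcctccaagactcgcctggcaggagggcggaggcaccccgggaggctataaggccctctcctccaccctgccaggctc
CNN2: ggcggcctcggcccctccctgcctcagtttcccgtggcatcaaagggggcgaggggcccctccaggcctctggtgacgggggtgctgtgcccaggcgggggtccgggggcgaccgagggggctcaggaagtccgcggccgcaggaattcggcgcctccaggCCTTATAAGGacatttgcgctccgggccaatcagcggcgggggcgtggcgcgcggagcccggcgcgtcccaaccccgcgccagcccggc
The first match began 105 bases before the start in EGR1, 30 in SRF, 173 in TPM4 and 89 in CNN2, and EGR1 and SRF each held 2. These are letter matches and not measured binding sites.

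Several inhibitors that the ERK pathway induces against itself rose. Of 18 tested, 6 rose (33.3%) and 0 fell, with a median of 0.355 that was 0.18 without SCF replicate 1 and 0.506 without SCF replicate 3. Between 4 and 5 rose in each leave-one-out fit. DUSP6, the cytoplasmic phosphatase of ERK, was at 3.22, 2.4 and 2.99 CPM after PBS and 12, 17 and 16.3 CPM after SCF (2.39 ± 0.19, adjusted p = 7.25e-05). The groups were far apart, and the rise was the smaller in replicate 1. DUSP2, a nuclear phosphatase of the same family, was at 2.82, 2.05 and 2.56 CPM after PBS and 17.5, 9.73 and 8.14 CPM after SCF (2.25 ± 0.28, adjusted p = 0.00105), with the highest SCF value in replicate 1. The Sprouty genes, which restrain receptor tyrosine kinases upstream of ERK, were called for SPRY2 (1.30 ± 0.24, adjusted p = 0.0127) and SPRY1 (0.83 ± 0.16, adjusted p = 0.0175). DUSP7 (0.61 ± 0.10, adjusted p = 0.00578) and DUSP5 (1.35 ± 0.29, adjusted p = 0.0312) completed the calls, the latter at 0.759, 0.748 and 0.543 CPM after PBS and 1.72, 2.07 and 1.48 CPM after SCF and lost whichever of the 6 libraries was left out. The call on SPRY1 held in 2 of those 6 fits. DUSP1 (0.23 ± 0.35, adjusted p = 0.865) and SPRED2 (0.48 ± 0.19, adjusted p = 0.248) did not pass. Exons of DUSP6 overlap another gene on the opposite strand.

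Among the ETS factors and EGR corepressors, 2 of 16 tested rose (12.5%) and the median was 0.0665, from 0.0315 without PBS replicate 2 to 0.15 without PBS replicate 1. ETS2 was at 21.7, 27.3 and 29.9 CPM after PBS and 41.2, 57.1 and 52.6 CPM after SCF (0.94 ± 0.19, adjusted p = 0.024), with replicate 1 the lowest on each treatment. NAB1, which binds EGR proteins and represses their targets, was at 14.3, 12.8 and 15.7 CPM after PBS and 19.8, 17.3 and 18.6 CPM after SCF (0.38 ± 0.091, adjusted p = 0.0464). Its partner NAB2 was at 21.9, 20.1 and 19.2 CPM after PBS and 53.6, 29.7 and 33.4 CPM after SCF and passed only with the replicate 1 term (adjusted p = 0.0296, against 0.077), as did the ETS repressor ERF (0.43 ± 0.043, adjusted p = 5.18e-05). The calls on ETS2 and NAB1 were mostly lost with fewer libraries: ETS2 was called in 1 and NAB1 in 0 of the 6 leave-one-out fits. All these genes have exons that overlap another gene.

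Cytokine feedback genes and targets of STAT5 split between directions. Of 18 tested, 4 rose (22.2%) and 1 fell (5.56%), with a median of 0.146 that was 0.0743 without SCF replicate 1 and 0.231 without SCF replicate 2. CISH, a STAT5-induced inhibitor of cytokine receptors, was at 23, 25.9 and 24.6 CPM after PBS and 38.2, 47.6 and 49.5 CPM after SCF. It rose 1.84-fold (0.88 ± 0.13, adjusted p = 0.0043) with no overlap of the groups. SOCS2 (0.54 ± 0.11, adjusted p = 0.0231) and SOCS4 (0.36 ± 0.066, adjusted p = 0.0141), from the same family of inhibitors, and the survival kinase PIM3 (0.63 ± 0.11, adjusted p = 0.0114) rose as well. PIM1, the sister kinase of PIM3, moved the other way, from 106, 104 and 99.4 CPM to 66.2, 77.9 and 71.5 CPM (-0.52 ± 0.10, adjusted p = 0.0165). Of the 6 leave-one-out fits, PIM1 was called in 1, SOCS2 and SOCS4 in 2, PIM3 in 4 and CISH in all 6. BCL2L1, an anti-apoptotic STAT5 target, was at 49, 50.1 and 50.9 CPM after PBS and 52, 49.8 and 51.9 CPM after SCF and did not pass (0.034 ± 0.073, adjusted p = 0.909). Exons of CISH, SOCS2 and BCL2L1 overlap another gene.

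**Figure D3:**
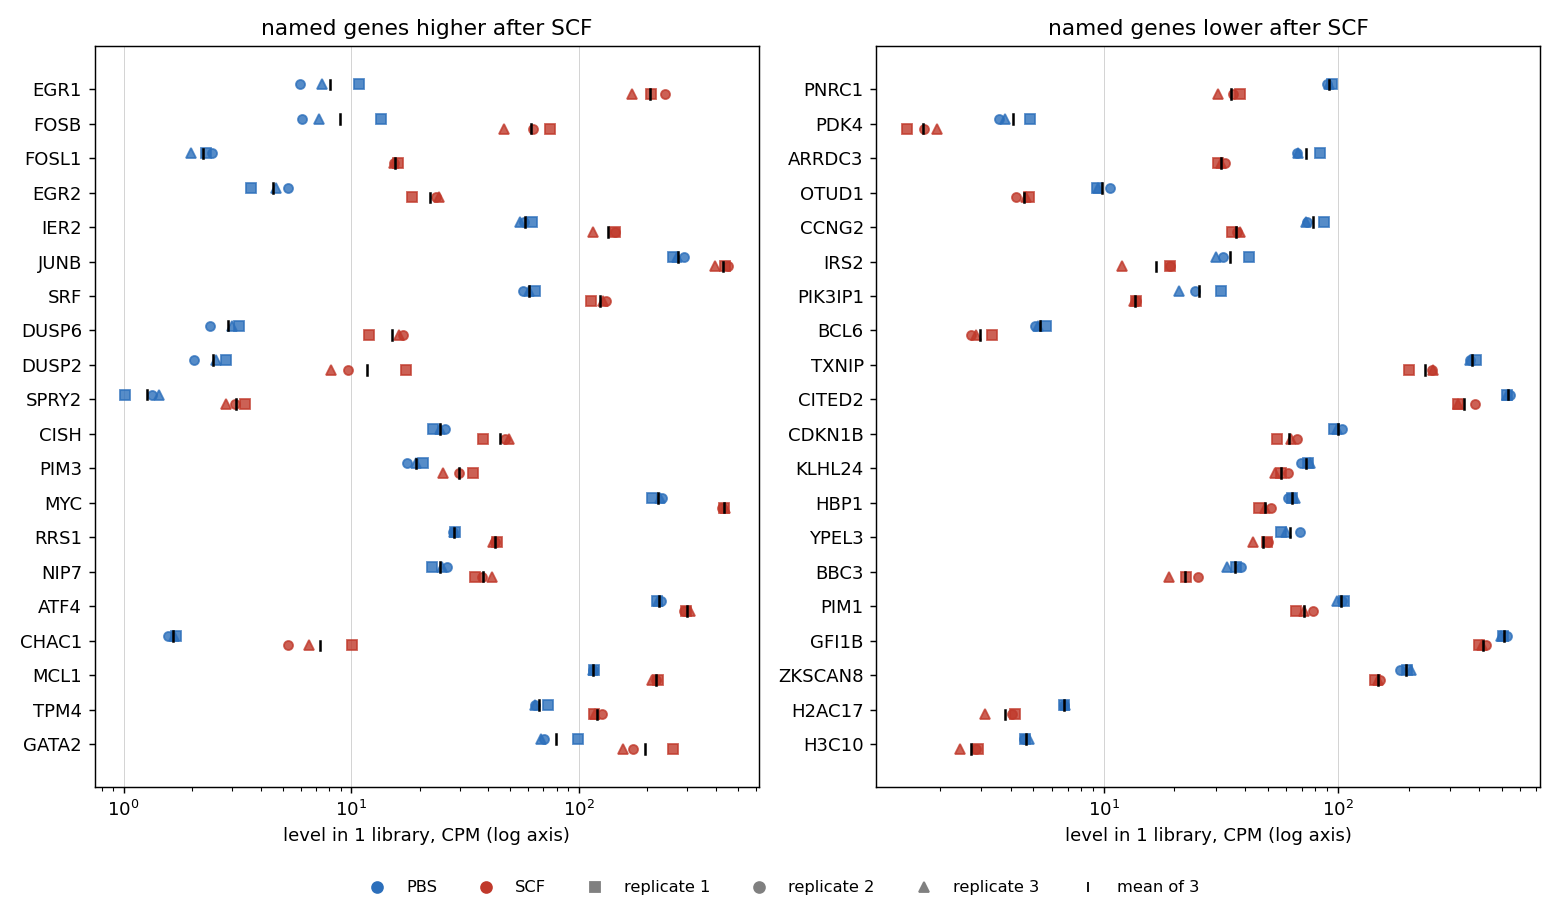
Level in each library in CPM on a log axis for 20 named genes that rose (left) and 20 that fell (right), with PBS in blue, SCF in red, a marker shape per replicate and a black tick at the mean of 3. For every gene shown, as for all called genes, the red and blue points do not overlap. The shifts run from EGR1, at 5.99 to 10.9 CPM against 171 to 239 CPM, to small ones such as ATF4 or GFI1B.

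Several genes of the actin cytoskeleton, many of them SRF targets, rose. Of 27 tested 8 rose (29.6%) and 0 fell, and the median was 0.146. The 8 include SRF itself, counted above among the immediate early factors, and MCL1, which is not a cytoskeleton gene. ACTB, beta-actin, was at 3225, 3411 and 3294 CPM after PBS and 4039, 4431 and 4104 CPM after SCF. The rise of 1.27-fold was modest but clear of the replicate spread (0.34 ± 0.053, adjusted p = 0.00501). TPM4, a tropomyosin, was at 73.3, 64.3 and 64.1 CPM after PBS and 117, 127 and 118 CPM after SCF (0.85 ± 0.077, adjusted p = 0.000169). Zyxin, a focal adhesion protein (ZYX, 0.62 ± 0.12, adjusted p = 0.0143), the actin disassembly factor WDR1 (0.24 ± 0.034, adjusted p = 0.00267) and calponin CNN2 (0.38 ± 0.09, adjusted p = 0.0431) rose less. RHOB, a small GTPase, was at 30.9, 19.7 and 18.1 CPM after PBS and 62.5, 58.2 and 48.2 CPM after SCF (1.30 ± 0.27, adjusted p = 0.0241). It was the only call among 37 regulators of small GTPases and related genes, whose median was 0.0445. ACTG1, gamma-actin, was at 291, 396 and 403 CPM after PBS and 419.9, 569 and 539.6 CPM after SCF and passed only with the replicate 1 term (0.49 ± 0.048, adjusted p = 4.22e-05, against 0.291). FHL2, a LIM domain protein of actin structures and of transcription complexes, did likewise (0.62 ± 0.073, adjusted p = 0.000156). MCL1, an anti-apoptotic BCL2 family member kept on this list, was at 117, 116 and 115 CPM after PBS and 224, 219.6 and 210.4 CPM after SCF (0.91 ± 0.049, adjusted p = 3.01e-06). Of this group RHOB and ZYX were called in 2 and CNN2 in 1 of the 6 leave-one-out fits, and exons of MCL1, TPM4, ZYX, WDR1, CNN2, ACTG1 and FHL2 overlap another gene.

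The list of FOXO factors and genes described as induced by starvation had the most falls of all lists. It was chosen with earlier results of these data known, so its share is a description. Whether FOXO or starvation held these genes up in these cells was not tested. All 40 listed genes were tested, and 14 fell (35.0%) while 1 rose (2.5%). The median was -0.167, and with the replicate 1 term 18 fell and 2 rose. PNRC1, a nuclear receptor coactivator that also binds the decapping machinery, was at 94, 90.1 and 91.6 CPM after PBS and 38, 35.6 and 30.9 CPM after SCF. Its mean level after SCF was 37.9% of that after PBS, and its adjusted p was the smallest among genes that fell (-1.40 ± 0.089, adjusted p = 1.30e-05). CCNG2, an atypical cyclin linked to cell cycle arrest, was at 87.4, 73.8 and 73.1 CPM after PBS and 35.3, 37 and 38.1 CPM after SCF (-1.09 ± 0.09, adjusted p = 9.33e-05). CDKN1B, which encodes the CDK inhibitor p27, was at 95.8, 104 and 99.1 CPM after PBS and 54.9, 66.7 and 63 CPM after SCF (-0.69 ± 0.065, adjusted p = 0.000196). In each of these genes the highest SCF library lay clearly below the lowest PBS library.

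Genes of this group that act on growth factor and nutrient signalling fell as well. IRS2, an adaptor of insulin and cytokine receptors, was at 41.9, 32.2 and 30.1 CPM after PBS and 19.2, 19.1 and 12 CPM after SCF (-1.05 ± 0.23, adjusted p = 0.0312), and its call was lost in all 6 leave-one-out fits. PIK3IP1, an inhibitor of PI3K, was at 31.5, 24.5 and 20.9 CPM after PBS and 13.7, 13.7 and 13.5 CPM after SCF (-0.91 ± 0.16, adjusted p = 0.00896). ARRDC3, an alpha-arrestin that brings ubiquitin ligases to membrane receptors, was at 84, 66.5 and 67.5 CPM after PBS and 30.7, 33 and 31.7 CPM after SCF (-1.19 ± 0.14, adjusted p = 0.000812). TXNIP, an alpha-arrestin that limits glucose uptake, was at 388, 365 and 365 CPM after PBS and 200.3, 252 and 254 CPM after SCF (-0.66 ± 0.094, adjusted p = 0.00265). ARRDC4, another alpha-arrestin, went the other way, from 42, 36.2 and 37.8 CPM to 54.1, 57.1 and 54.6 CPM (0.51 ± 0.075, adjusted p = 0.00322). PDK4, which restrains pyruvate oxidation, was at 4.84, 3.58 and 3.8 CPM after PBS and 1.44, 1.7 and 1.95 CPM after SCF (-1.26 ± 0.17, adjusted p = 0.00153).

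Transcriptional and ubiquitin regulators made up the rest of the group. CITED2, which competes for the coactivator p300, was at 527, 544 and 528 CPM after PBS and 325, 385 and 324 CPM after SCF (-0.63 ± 0.068, adjusted p = 0.000479). OTUD1, a deubiquitinase, was at 9.32, 10.7 and 9.43 CPM after PBS and 4.78, 4.2 and 4.65 CPM after SCF (-1.11 ± 0.13, adjusted p = 0.000823). The repressor BCL6 was at 5.67, 5.08 and 5.24 CPM after PBS and 3.35, 2.7 and 2.86 CPM after SCF (-0.84 ± 0.15, adjusted p = 0.0129). KLHL24, an adaptor of ubiquitin ligases (-0.36 ± 0.055, adjusted p = 0.0043), HBP1, a repressor of cell cycle genes (-0.37 ± 0.066, adjusted p = 0.0103), and YPEL3 (-0.37 ± 0.087, adjusted p = 0.0437) fell less, and these 3 were named with TXNIP after their values were seen. FOXO3 itself was at 156, 159 and 178 CPM after PBS and 145, 163 and 141 CPM after SCF and did not pass (-0.13 ± 0.064, adjusted p = 0.369). BCL2L11, which encodes the pro-apoptotic BIM, was at 154, 129.7 and 124 CPM after PBS and 116, 106 and 99.7 CPM after SCF and passed only with the replicate 1 term (-0.34 ± 0.037, adjusted p = 9.15e-05, against 0.0756). BTG1, an antiproliferative factor, did likewise (adjusted p = 0.00729, against 0.146). YPEL3 was called in 1, BCL6 in 4 and HBP1 in 5 of the 6 leave-one-out fits, and exons of ARRDC3, IRS2, PIK3IP1, BCL6, YPEL3, HBP1, BCL2L11 and BTG1 overlap another gene.

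The letters GTAAACA, a core FOXO motif, searched on both strands, were in 2.18% of all matched promoters. They were in 1.12% of promoters of genes that rose, in 9.64% of those that fell and in 8 of 35 matched promoters of the FOXO and starvation list (22.9%). These shares overlap, since TXNIP, OTUD1, HBP1 and YPEL3 fell and are also on the list. Among genes that fell only with the replicate 1 term the share was 3.24%. Promoters of 3 members that fell are shown with the match in capitals: TXNIP (chr1:145996580-145996829, minus strand), OTUD1 (chr10:23438825-23439074, plus strand) and HBP1 (chr7:107168753-107169002, plus strand).
TXNIP: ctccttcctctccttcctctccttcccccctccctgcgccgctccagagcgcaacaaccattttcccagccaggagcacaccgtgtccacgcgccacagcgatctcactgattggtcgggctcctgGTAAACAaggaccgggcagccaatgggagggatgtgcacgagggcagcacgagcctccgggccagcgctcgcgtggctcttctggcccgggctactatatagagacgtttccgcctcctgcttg
OTUD1: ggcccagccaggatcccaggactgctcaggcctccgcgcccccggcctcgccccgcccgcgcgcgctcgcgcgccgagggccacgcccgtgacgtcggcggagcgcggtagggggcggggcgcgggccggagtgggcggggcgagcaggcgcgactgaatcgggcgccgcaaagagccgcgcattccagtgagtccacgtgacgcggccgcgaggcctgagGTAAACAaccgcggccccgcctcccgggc
HBP1: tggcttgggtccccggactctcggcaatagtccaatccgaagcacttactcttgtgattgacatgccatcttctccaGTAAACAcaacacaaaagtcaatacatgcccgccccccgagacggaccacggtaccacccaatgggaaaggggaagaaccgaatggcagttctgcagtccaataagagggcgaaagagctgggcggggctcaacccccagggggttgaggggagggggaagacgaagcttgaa
The matches began 124, 29 and 173 bases before the start. These too are letter matches and not measured sites.

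Factors that act on mRNA decay moved in both directions. Of 32 tested, 4 rose (12.5%) and 3 fell (9.38%), with a median of -0.0268 that was -0.0571 without PBS replicate 2 and 0.00262 without SCF replicate 3. BTG3, of the BTG and TOB family that recruits the deadenylase complex, was at 9.65, 9.06 and 9.27 CPM after PBS and 15.6, 16.4 and 16.4 CPM after SCF (0.79 ± 0.074, adjusted p = 0.000196). TOB2 of the same family (0.31 ± 0.056, adjusted p = 0.0132), the endonuclease ZC3H12A (0.58 ± 0.13, adjusted p = 0.0416) and the stem-loop binding RC3H2 (0.26 ± 0.063, adjusted p = 0.0468) rose less, and RC3H2 was lost whichever library was left out, while ZC3H12A held in 1 and TOB2 in 5 of those 6 fits. PNRC2, a decapping cofactor related to PNRC1, was at 147, 151 and 155 CPM after PBS and 128, 132 and 135 CPM after SCF (-0.20 ± 0.038, adjusted p = 0.0169) and held in 2 of the 6 fits. Exons of BTG3 and ZC3H12A overlap another gene. ZFP36, an immediate early gene in many cells, was at 107, 67.9 and 62.1 CPM after PBS and 116, 62.3 and 55.2 CPM after SCF, with replicate 1 the highest on each treatment, and did not pass (-0.022 ± 0.33, adjusted p = 0.992).

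MYC, the transcription factor that drives growth genes, was at 210.1, 233 and 227 CPM after PBS and 436, 428 and 441 CPM after SCF. The 3 SCF libraries were close to each other, and the gene rose 1.95-fold (0.96 ± 0.083, adjusted p = 9.66e-05). It was the only call among 11 tested genes of the MYC network, whose median was 0.00299. Of 66 tested factors that build ribosomes, 9 rose (13.6%) and 0 fell, 56 had a positive log2 fold change and the median was 0.0855. With the replicate 1 term 18 rose and 0 fell, and in the leave-one-out fits from 3 to 8 rose, with 3 when PBS replicate 2, SCF replicate 2 or SCF replicate 3 was left out. RRS1, an assembly factor of the large subunit, was at 28.7, 28 and 28.3 CPM after PBS and 43.7, 43 and 42.1 CPM after SCF (0.60 ± 0.066, adjusted p = 0.000601). NIP7, which acts on pre-rRNA, was at 22.8, 26.3 and 25 CPM after PBS and 35, 37.7 and 41.6 CPM after SCF (0.62 ± 0.092, adjusted p = 0.0034). NOP16 (0.53 ± 0.087, adjusted p = 0.00704), PNO1 (0.41 ± 0.078, adjusted p = 0.0154), UTP15 (0.40 ± 0.075, adjusted p = 0.0153) and GRWD1 (0.28 ± 0.056, adjusted p = 0.0199) rose by less than 1.5-fold. BYSL, needed for the small subunit, passed only with the term (0.38 ± 0.049, adjusted p = 0.000371, against 0.0591). Of the 83 tested ribosomal protein genes 0 rose and 2 fell, RPL28 from 1466, 1624 and 1604 CPM to 1281, 1403 and 1316 CPM (-0.23 ± 0.054, adjusted p = 0.0431) and RPS15 (-0.23 ± 0.052, adjusted p = 0.0362), with a median of -0.0806 that was -0.016 without SCF replicate 1 and -0.153 without PBS replicate 1. Calls on RPL28, RPS15 and GRWD1 held in 1, that on UTP15 in 2 and that on PNO1 in 3 of the 6 leave-one-out fits, and exons of MYC, NIP7, NOP16, PNO1, UTP15, RRS1, GRWD1 and RPL28 overlap another gene.

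Promoters of ribosome biogenesis factors often held the letters CCGGAAG, a core ETS motif, on either strand: 21 of 57 matched (36.8%), against 19.8% of all matched promoters, 25.3% for genes that rose and 10 of 83 for genes that fell. The E-box CACGTG, which MYC can bind, was in 23 of the 57 (40.4%), against 10.2% of all. The 3 shown belong to called members of the list, with the ETS match in capitals: NOP16 (chr5:176388599-176388848, minus strand), NIP7 (chr16:69339522-69339771, plus strand) and GRWD1 (chr19:48445733-48445982, plus strand).
NOP16: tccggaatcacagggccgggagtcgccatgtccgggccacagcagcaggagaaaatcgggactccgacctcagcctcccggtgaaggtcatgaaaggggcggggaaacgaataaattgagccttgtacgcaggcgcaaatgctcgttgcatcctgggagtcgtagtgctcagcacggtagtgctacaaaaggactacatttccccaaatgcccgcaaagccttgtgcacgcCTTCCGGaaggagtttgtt
NIP7: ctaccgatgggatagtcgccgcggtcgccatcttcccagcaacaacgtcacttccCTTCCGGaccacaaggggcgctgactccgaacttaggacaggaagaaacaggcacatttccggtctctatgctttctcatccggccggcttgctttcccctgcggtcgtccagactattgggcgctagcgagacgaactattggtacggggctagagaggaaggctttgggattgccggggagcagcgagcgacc
GRWD1: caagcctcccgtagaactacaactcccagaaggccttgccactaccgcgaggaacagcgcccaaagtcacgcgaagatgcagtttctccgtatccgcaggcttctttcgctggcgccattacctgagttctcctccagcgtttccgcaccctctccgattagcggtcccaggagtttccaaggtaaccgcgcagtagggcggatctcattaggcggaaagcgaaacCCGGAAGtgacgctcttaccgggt
The matches began 19, 195 and 24 bases before the start. The NOP16 match overlaps another, CCGGAAG on the printed strand, which is not marked in full. For comparison, the EGR motif GCGTGGG was in 27 of the 269 promoters of genes that rose, against 9.79% of all, and the AP-1 motif TGANTCA, where N is any base, in 2.97% and 4.45%. The cyclic AMP response element TGACGTCA was in 4.46% and 3.28%. Sequence outside these windows was not searched.

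ATF4, a factor induced by amino acid shortage and stress, and genes of amino acid supply rose in part. Of 37 tested ATF4 targets and tRNA synthetases, 5 rose (13.5%) and 0 fell, with 31 positive values and a median of 0.101 (0.0257 without SCF replicate 1, 0.0461 without PBS replicate 2 and 0.06 without PBS replicate 3), and 12 rose with the replicate 1 term. ATF4 was at 222, 231 and 224 CPM after PBS and 296, 291 and 309 CPM after SCF (0.41 ± 0.054, adjusted p = 0.00173). CHAC1, a glutathione-degrading enzyme that ATF4 induces, was at 1.7, 1.58 and 1.67 CPM after PBS and 10.1, 5.3 and 6.54 CPM after SCF (2.15 ± 0.30, adjusted p = 0.00265), highest in replicate 1 after SCF. SLC1A5, a glutamine transporter, was at 197, 225 and 211 CPM after PBS and 268, 269 and 264 CPM after SCF (0.34 ± 0.053, adjusted p = 0.00484). XBP1, a factor of the unfolded protein response (0.51 ± 0.08, adjusted p = 0.00518), and CEBPG, a partner of ATF4 (0.80 ± 0.18, adjusted p = 0.0328), also rose. SLC3A2, a subunit of amino acid exchangers, was at 115, 95 and 88.3 CPM after PBS and 147, 115 and 121 CPM after SCF and passed only with the term (0.36 ± 0.038, adjusted p = 7.33e-05, against 0.24). SLC7A5, its partner, was at 163, 117 and 121 CPM after PBS and 218, 151 and 135 CPM after SCF and also passed only with the term (adjusted p = 0.0082, against 0.509). CEBPG was called in 1 of the 6 leave-one-out fits, and exons of SLC1A5 and SLC7A5 overlap another gene.

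Of the enzymes for polyamines, nucleotides and one-carbon units, 2 of 35 rose (5.71%) with a median of 0.0237. AMD1, which supplies the aminopropyl group of polyamines, was at 95.5, 92.2 and 96.4 CPM after PBS and 124, 112 and 119 CPM after SCF (0.32 ± 0.048, adjusted p = 0.0035). ODC1, the rate-limiting enzyme of polyamine synthesis, was at 246, 263 and 253 CPM after PBS and 283, 289 and 281 CPM after SCF. Its groups were close to each other, and the small rise (0.16 ± 0.039, adjusted p = 0.0467) was lost whichever library was left out. In cholesterol and fatty acid synthesis 2 of 34 rose (5.88%, median 0.0203), among them STARD4, a sterol carrier (0.36 ± 0.082, adjusted p = 0.042). The call on STARD4 was lost whichever library was left out. Of 37 glycolysis and hypoxia genes 0 passed in the edgeR test and 1 in DESeq2, 7 had an unadjusted p under 0.05, 5 rose with the replicate 1 term, and the median was 0.0295. VEGFA, an angiogenic growth factor, was among these 5, at 81.7, 65.8 and 65.6 CPM after PBS and 112, 87.1 and 85.4 CPM after SCF (adjusted p = 0.000359 with the term, 0.142 without). Exons of STARD4 and VEGFA overlap another gene.

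Some cell cycle genes changed. Of 31 tested G1 cyclins, CDKs, inhibitors and E2F factors, 3 rose (9.68%, against 2.12% of all genes) and 1 fell (3.23%, against 0.775%). The median was 0.0748. With the replicate 1 term 9 rose and 3 fell, where 5.28% of all genes rose and 3.04% fell. CCND1, cyclin D1, was at 8.96, 7.76 and 8.34 CPM after PBS and 16.9, 13.8 and 13.1 CPM after SCF (0.80 ± 0.12, adjusted p = 0.00384). E2F3 was at 56.2, 52.1 and 50.9 CPM after PBS and 73.5, 64.7 and 63.2 CPM after SCF (0.34 ± 0.067, adjusted p = 0.0179), and CCNL1, a cyclin that acts in splicing, was at 91.8, 97.5 and 95.5 CPM after PBS and 109, 114 and 112 CPM after SCF (0.24 ± 0.038, adjusted p = 0.00597). Of 38 mitosis genes 2 rose (5.26%) and 1 fell (2.63%), with a median of -0.0477. CDC25A, a phosphatase that activates CDKs already at G1 exit, was at 29.6, 26.1 and 30.5 CPM after PBS and 55.5, 49.8 and 55.6 CPM after SCF and rose 1.87-fold (0.90 ± 0.066, adjusted p = 4.92e-05). PLK3, a stress-responsive polo-like kinase, was at 1.66, 1.69 and 1.32 CPM after PBS and 5.57, 5.0 and 3.96 CPM after SCF (1.63 ± 0.21, adjusted p = 0.00129). TTK, a kinase of the spindle checkpoint, was at 198, 198 and 201 CPM after PBS and 163, 169 and 179 CPM after SCF (-0.22 ± 0.045, adjusted p = 0.0218), a call that held in 1 of the 6 leave-one-out fits. E2F3 held in 3 of those 6. Exons of CCND1, CCNL1 and PLK3 overlap another gene.

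Genes tied to p53 and to apoptosis moved both ways. Of 33 p53 and growth arrest genes 3 rose (9.09%) and 1 fell (3.03%), with a median of 0.00395. SERTAD3, a coactivator of E2F, was at 21.9, 22.7 and 22.3 CPM after PBS and 36.2, 38.5 and 45.1 CPM after SCF (0.84 ± 0.08, adjusted p = 0.000196). AEN, an exonuclease induced by p53, was at 14.2, 18.2 and 19.5 CPM after PBS and 33.5, 33.8 and 37.7 CPM after SCF (1.02 ± 0.12, adjusted p = 0.000937). BBC3, which encodes the pro-apoptotic PUMA, was at 36.7, 38.6 and 33.4 CPM after PBS and 22.4, 25.3 and 18.9 CPM after SCF (-0.71 ± 0.11, adjusted p = 0.00353). In the BCL2 family as a whole 2 of 18 rose (11.1%) and 1 fell (5.56%): MCL1 rose and BBC3 fell as given, and BAK1, a pro-apoptotic effector, was at 8.74, 8.43 and 8.11 CPM after PBS and 11.2, 11 and 11.4 CPM after SCF (0.41 ± 0.091, adjusted p = 0.0348). The call on BAK1 was lost whichever library was left out. Exons of SERTAD3, BBC3, MCL1 and BAK1 overlap another gene.

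In the erythroid programme single regulators changed. Of 25 tested erythroid transcription factors 2 rose (8.0%) and 2 fell (8.0%), with a median of -0.0156. GATA2, the GATA factor of progenitors and mast cells, was at 99.1, 70.8 and 68.7 CPM after PBS and 259, 173 and 157 CPM after SCF and rose 2.47-fold (1.30 ± 0.21, adjusted p = 0.00705). Replicate 1 was the highest on each treatment, as it was for the mast cell marker TPSAB1, at 197, 87.5 and 84.9 CPM after PBS and 208, 94.4 and 85.3 CPM after SCF (0.068 ± 0.41, adjusted p = 0.976), which did not pass. The part of such markers in the rise of GATA2 was not tested beyond the sums without GATA2 given above, which were nearly level between treatments within each replicate number. HHEX, a homeobox factor of haematopoietic progenitors, was at 6.86, 3.51 and 4.38 CPM after PBS and 14.1, 9.7 and 10.2 CPM after SCF (1.20 ± 0.29, adjusted p = 0.0495) and held in 1 of the 6 leave-one-out fits. GFI1B, a repressor needed for erythroid development, was at 508, 526 and 495 CPM after PBS and 401, 428 and 412 CPM after SCF (-0.30 ± 0.051, adjusted p = 0.00868). NR3C1, the glucocorticoid receptor, was at 85.1, 84.6 and 91.7 CPM after PBS and 72, 74.1 and 77.9 CPM after SCF (-0.22 ± 0.046, adjusted p = 0.0241) and held in 3 of those 6 fits. GATA1 (-0.07 ± 0.056, adjusted p = 0.665) and KLF1 (-0.13 ± 0.056, adjusted p = 0.288) did not pass.

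Of 46 genes for globins, heme synthesis and the red cell membrane, 0 passed in the edgeR test and 2 in DESeq2, 8 had an unadjusted p under 0.05, 9 had a positive value and the median was -0.102, which became -0.0385 without SCF replicate 1, -0.0541 without PBS replicate 3, -0.0559 without PBS replicate 2 and -0.146 without PBS replicate 1. With the replicate 1 term 8 fell and 0 rose. HBA1, an alpha-globin gene whose reads can be shared with its near-identical copy HBA2, was at 1692, 2214 and 2168 CPM after PBS and 1580.2, 1855 and 1778 CPM after SCF (-0.22 ± 0.11, adjusted p = 0.386), and HBA2 was at 4636, 4486 and 5434 CPM after PBS and 4172, 4621 and 4404 CPM after SCF (-0.14 ± 0.10, adjusted p = 0.619). The groups overlapped in both. ALAS2, the erythroid enzyme that starts heme synthesis, was at 742, 735 and 717 CPM after PBS and 683, 653 and 679 CPM after SCF, and its groups did not overlap, yet the adjusted p was 0.494. SLC4A1, the band 3 anion exchanger, was at 1246, 1379 and 1432 CPM after PBS and 1086, 1211 and 1224 CPM after SCF (-0.20 ± 0.074, adjusted p = 0.206). Of 32 tested components of Kit and erythropoietin receptor signalling 0 rose and 1, IRS2, fell (3.12%), with a median of -0.00264. KIT was at 522, 462 and 508 CPM after PBS and 502, 482 and 494 CPM after SCF (-0.013 ± 0.049, adjusted p = 0.96). Exons of HBA1, HBA2, ALAS2, GATA2 and GFI1B overlap another gene.

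**Figure D4:**
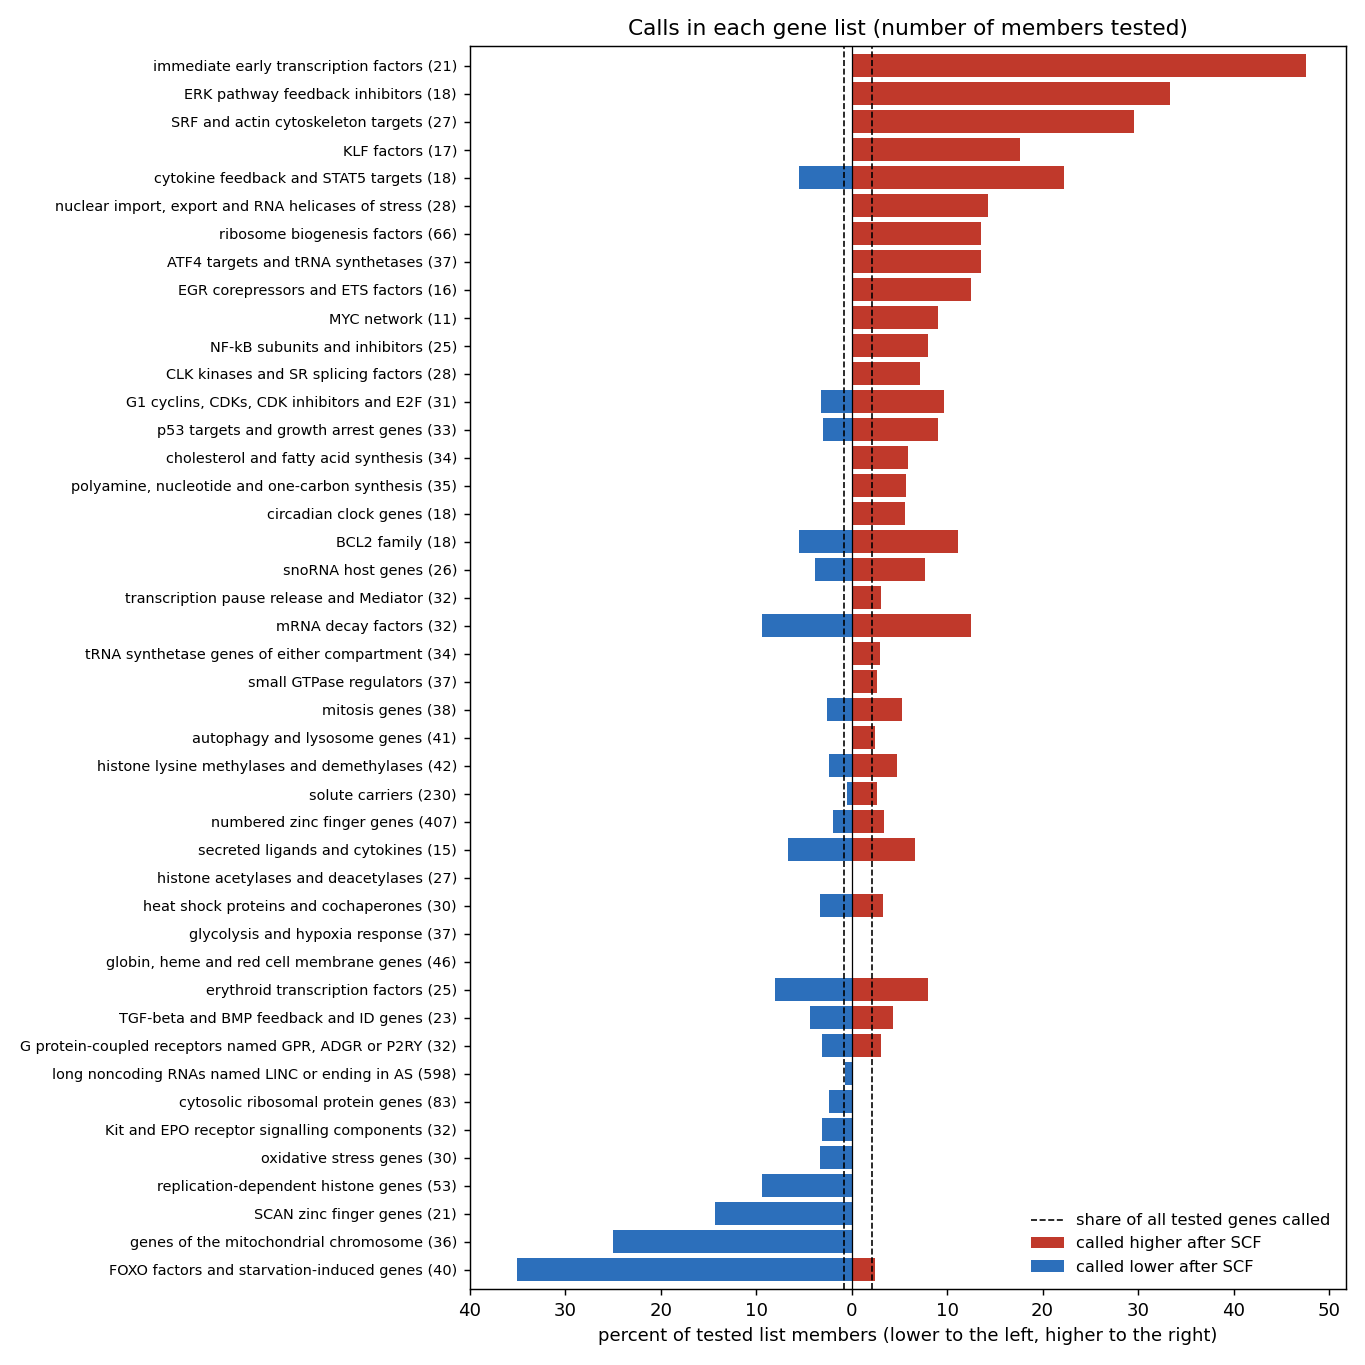
Percent of the tested members of each gene list that were called higher (red, to the right) or lower (blue, to the left) after SCF, with the number tested in brackets and the shares over all genes, 2.12% and 0.775%, as dashed lines. Cell type marker lists are not drawn. The immediate early list reaches 47.6% on the right and the FOXO and starvation list 35.0% on the left, and 3 of the lists drawn have no call.

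Several inhibitors and signals of other pathways rose as single genes. Of 25 NF-kB subunits and inhibitors 2 rose (8.0%), with a median of 0.177: TNFAIP3, the deubiquitinase A20 that ends NF-kB signalling (0.73 ± 0.10, adjusted p = 0.00265), and TRAF4, an adaptor of the TNF receptor family (0.82 ± 0.12, adjusted p = 0.00265). Of 15 tested ligands and cytokines, LIF, a cytokine of the interleukin 6 family, was at 3.03, 2.56 and 1.82 CPM after PBS and 6.91, 5.3 and 6.03 CPM after SCF (1.30 ± 0.25, adjusted p = 0.0165). PER2, a repressor of the circadian clock, was at 3.69, 3.7 and 3.88 CPM after PBS and 10.7, 8.4 and 7.86 CPM after SCF (1.26 ± 0.16, adjusted p = 0.00111) and was the only call among 18 clock genes, whose median was 0.176. SKIL, a repressor of SMAD signalling, was at 5.96, 3.74 and 3.96 CPM after PBS and 16.1, 13.1 and 12.3 CPM after SCF (1.60 ± 0.31, adjusted p = 0.0171). TNFRSF12A, the receptor of TWEAK, was at 3.76, 2.09 and 2.17 CPM after PBS and 13.1, 10.1 and 8.99 CPM after SCF (2.00 ± 0.24, adjusted p = 0.000874). LIF held the call in 2 and SKIL in 3 of the 6 leave-one-out fits. Exons of TNFAIP3, TRAF4, LIF, PER2 and TNFRSF12A overlap another gene.

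The remaining genes among the 25 with the largest rise had varied roles. CSRNP1, a nuclear protein with transactivating activity (1.71 ± 0.25, adjusted p = 0.00308), FJX1, a secreted and Golgi protein (1.63 ± 0.25, adjusted p = 0.0043), NXT1, a cofactor of mRNA export (1.02 ± 0.10, adjusted p = 0.000242), and CDK5R1, the activator of CDK5 (0.99 ± 0.17, adjusted p = 0.00896), were among them. SNHG15, a noncoding host of a small nucleolar RNA, was at 2.42, 2.6 and 3.41 CPM after PBS and 7.66, 7.13 and 8.49 CPM after SCF (1.46 ± 0.15, adjusted p = 0.000267). It was 1 of 2 snoRNA hosts that rose, with SNHG17 (0.55 ± 0.095, adjusted p = 0.00868), while SNHG7 fell (-0.37 ± 0.07, adjusted p = 0.0146), out of 26 tested with a median of -0.0481. SNHG7 was called in 3 and CDK5R1 in 5 of the 6 leave-one-out fits, and exons of CSRNP1 and of the 3 snoRNA hosts overlap another gene.

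Of the 10 most abundant genes that rose, ACTB, JUNB, MYC and ODC1 were given above, and MYC and JUNB had the largest changes among the 10. EIF4G2, a translation initiation factor, was at 490.3, 474 and 491 CPM after PBS and 636, 601 and 641 CPM after SCF (0.37 ± 0.041, adjusted p = 0.000602). SPN, the sialophorin CD43 of blood cells, was at 409.9, 401 and 411 CPM after PBS and 489, 499 and 482 CPM after SCF (0.27 ± 0.036, adjusted p = 0.0018). EZR, ezrin, which links actin to the membrane (0.16 ± 0.036, adjusted p = 0.0313), the adaptor YWHAZ (0.16 ± 0.037, adjusted p = 0.0362) and the RNA binding SYNCRIP (0.19 ± 0.034, adjusted p = 0.0114) rose by 1.12-fold, 1.12-fold and 1.14-fold. The RNA helicases DDX3X (0.40 ± 0.051, adjusted p = 0.00129) and DDX5 (0.42 ± 0.10, adjusted p = 0.0431), the importin KPNA2 (0.25 ± 0.048, adjusted p = 0.0154) and the initiation factor EIF1 (0.25 ± 0.057, adjusted p = 0.0365) were the 4 of 28 in the list of nuclear transport and helicases (14.3%, median 0.0754). EZR was called in 0, YWHAZ and EIF1 in 1, DDX5 in 2, KPNA2 in 3 and SYNCRIP in 5 of the 6 leave-one-out fits. Exons of EIF4G2, SPN, EZR, SYNCRIP and DDX5 overlap another gene.

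Transcripts of the mitochondrial genome were lower after SCF. The list was added after the data had been seen, by chromosome, since the symbols in the table carry no prefix. Of 36 tested genes 2 had a positive value, 9 fell (25%) and 0 rose, with a median of -0.253, and 17 fell with the replicate 1 term. None was called without PBS replicate 2, PBS replicate 3 or SCF replicate 3, and the median stayed between -0.318 and -0.209 in the leave-one-out fits. They took 10.4%, 10.4% and 10.7% of the counts after PBS and 9.27%, 9.32% and 8.23% after SCF. The groups did not overlap in this share, and replicate 3 had the lowest value after SCF. COX1, a subunit of cytochrome oxidase, was at 16608, 16104 and 16023 CPM after PBS and 14465, 14224 and 13041 CPM after SCF (-0.22 ± 0.046, adjusted p = 0.0234). RNR2, the large mitochondrial rRNA, was at 11500, 13254 and 13632 CPM after PBS and 9688, 11021 and 9631 CPM after SCF (-0.34 ± 0.072, adjusted p = 0.0278). COX3 (-0.24 ± 0.047, adjusted p = 0.0198), COX2 (-0.25 ± 0.053, adjusted p = 0.0245), ATP6 (-0.25 ± 0.06, adjusted p = 0.0464), ATP8 (-0.33 ± 0.077, adjusted p = 0.0453) and ND4L (-0.34 ± 0.074, adjusted p = 0.0322) also fell, as did the nuclear pseudogene MTND4P12 (-0.33 ± 0.064, adjusted p = 0.0171), which can share their reads. The adjusted p of COX1 ran from 3.16e-09 to 0.239 over the alternatives, and in the 6 leave-one-out fits ATP6, ATP8 and ND4L were called in 1, COX1, COX2 and RNR2 in 2 and COX3 in 3.

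Replication-dependent histone genes had the lowest median of all lists, -0.61 over 53 tested, and none had a positive value. Of these, 5 fell (9.43%) and 0 rose, and 13 fell with the replicate 1 term. Without PBS replicate 3 or SCF replicate 3 none was called, while the median stayed between -0.679 and -0.571 in the leave-one-out fits. H2AC17 was at 6.76, 6.73 and 6.83 CPM after PBS and 4.19, 4.07 and 3.11 CPM after SCF (-0.84 ± 0.18, adjusted p = 0.0269) and H3C10 at 4.59, 4.57 and 4.77 CPM after PBS and 2.91, 2.83 and 2.42 CPM after SCF (-0.77 ± 0.14, adjusted p = 0.0141). In both genes all SCF libraries were below all PBS libraries. The linker histone H1-3 (-0.75 ± 0.16, adjusted p = 0.026), H4C9 (-1.17 ± 0.28, adjusted p = 0.047) and H2AC4 (-0.99 ± 0.24, adjusted p = 0.0462) also fell. Most histone mRNAs of this kind lack a poly(A) tail, and these 5 genes were at most at 6.83 CPM in any library. In the 6 leave-one-out fits H3C10 was called in 4, H1-3 in 2 and H2AC17, H4C9 and H2AC4 in 0, and exons of H2AC17 overlap another gene. In the sgEGR1 cells the log2 fold changes were -0.083 for H2AC17 and -0.15 for H3C10, and neither passed there, and the difference between the guides did not pass in edgeR either (unadjusted p = 0.0106 and 0.0103, both with an adjusted p of 1.0).

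**Figure D5:**
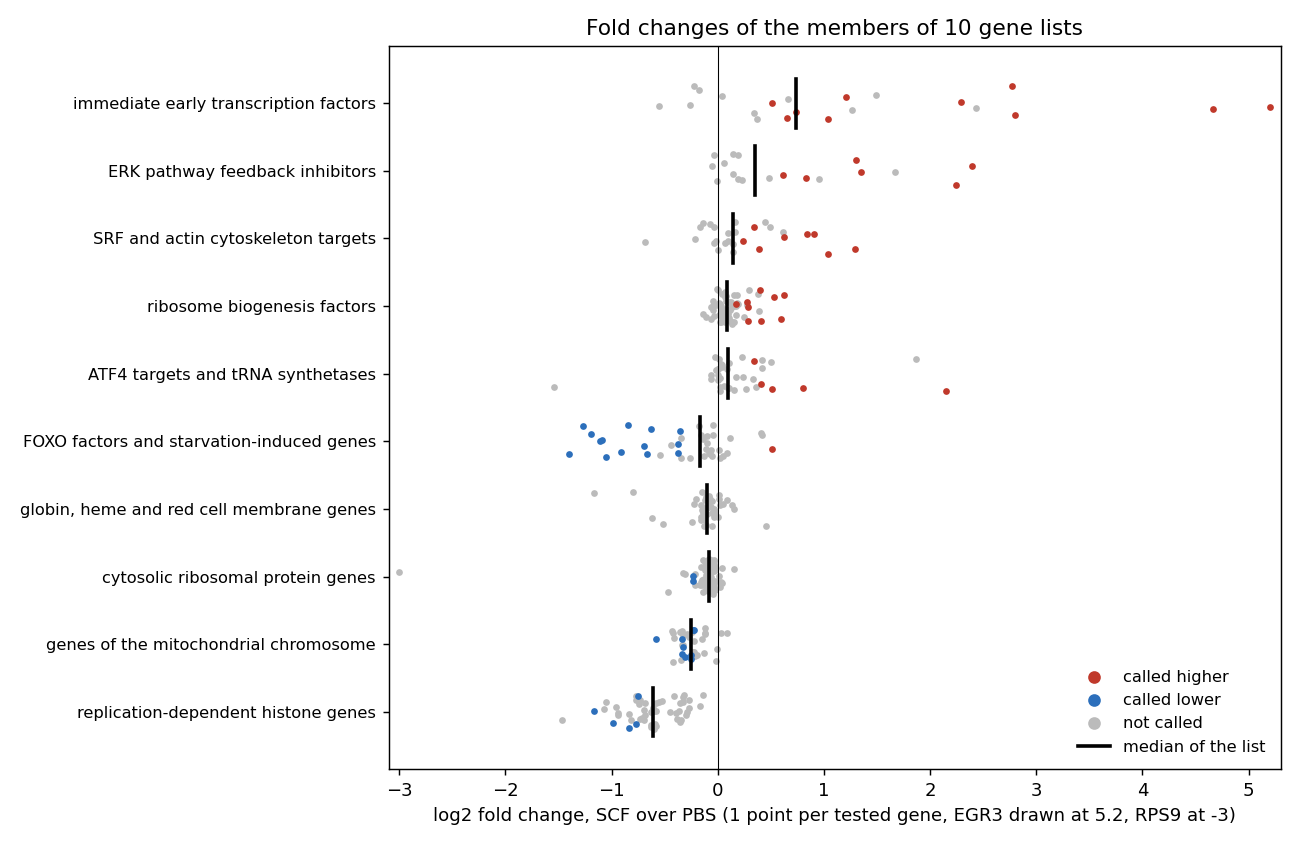
Log2 fold change of SCF over PBS for each tested member of 10 gene lists (x axis, 1 point per gene), with called genes in red or blue, other genes in grey and the median of each list as a black bar. The medians run from 0.737 for immediate early factors to -0.61 for replication-dependent histones, and 0 points of the histone list lie to the right of 0. EGR3 is drawn at 5.2 and RPS9 at -3.

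Noncoding and zinc finger genes moved in both directions. Among 598 tested genes named LINC or with an AS suffix 1 rose (0.167%) and 4 fell (0.669%, below the 0.775% of all genes), with a median of -0.121 that was -0.0591 without PBS replicate 1 and -0.182 without SCF replicate 1. ZNF436-AS1, which lies beside ZNF436, was at 5.2, 6.54 and 5.62 CPM after PBS and 1.91, 2.4 and 2.99 CPM after SCF (-1.25 ± 0.18, adjusted p = 0.00345), and ZNF436 itself was at 20.5, 18 and 21.6 CPM after PBS and 15.6, 13.8 and 15.2 CPM after SCF (-0.43 ± 0.088, adjusted p = 0.0224), so both genes of the locus were lower. STAM-DT was at 2.64, 2.56 and 3.34 CPM after PBS and 0.844, 1.1 and 1.63 CPM after SCF (-1.25 ± 0.23, adjusted p = 0.0133). ARIH2OS (-0.83 ± 0.18, adjusted p = 0.0319), the pseudogene COX6B1P5 (-1.01 ± 0.21, adjusted p = 0.0227) and the uncharacterised LOC105372117 (-0.98 ± 0.17, adjusted p = 0.0099), LOC102724416 (-0.88 ± 0.19, adjusted p = 0.0262), LOC105378479 (-0.86 ± 0.18, adjusted p = 0.0227) and LOC107985678 (-0.78 ± 0.17, adjusted p = 0.0293) were also among the 20 strongest falls. Of these ZNF436-AS1 was called in all 6 leave-one-out fits, LOC105372117 in 5, STAM-DT in 4, LOC102724416 in 2 and the others in 1. Of 407 numbered zinc finger genes 14 rose (3.44%, against 2.12% of all genes) and 8 fell (1.97%, against 0.775%). The smallest p in each direction belonged to ZNF267 (0.43 ± 0.074, adjusted p = 0.00868) and ZNF345 (-0.55 ± 0.10, adjusted p = 0.0125). Zinc finger genes with a SCAN domain, a list added after the data had been seen, had 3 of 21 that fell (14.3%), ZKSCAN8 from 198, 185 and 205 CPM to 143, 151 and 148 CPM (-0.41 ± 0.045, adjusted p = 0.000507), ZSCAN26 (-0.38 ± 0.066, adjusted p = 0.0097) and ZKSCAN4 (-0.39 ± 0.092, adjusted p = 0.046), and a median of -0.123 (-0.0689 without PBS replicate 2, -0.0793 without SCF replicate 2). The call on ZKSCAN4 was lost whichever library was left out. Of the genes matched to the annotation here, ZNF436-AS1, ZNF436, ARIH2OS, ZNF345 and ZSCAN26 share exonic positions with a neighbour.

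Other genes fell alone. FGF14, an intracellular FGF that binds sodium channels, was at 9.39, 3.86 and 12.4 CPM after PBS and 3.0, 2.67 and 3.49 CPM after SCF. Its PBS libraries were spread widely, with replicate 2 close to the SCF libraries, and the large change (-1.49 ± 0.34, adjusted p = 0.041) was called in 1 of the 6 leave-one-out fits. RGS17, a brake on G protein signalling, was at 3.11, 2.99 and 3.03 CPM after PBS and 1.34, 1.67 and 1.85 CPM after SCF (-0.91 ± 0.22, adjusted p = 0.0464) and was lost whichever library was left out. GPR146, an orphan receptor (-0.65 ± 0.086, adjusted p = 0.00167), DNAJB4, a cochaperone (-0.77 ± 0.11, adjusted p = 0.00265), and EZH1, a histone H3 lysine 27 methylase (-0.29 ± 0.056, adjusted p = 0.0165), fell. GCLC, the rate-limiting enzyme of glutathione synthesis, was at 387, 375 and 371 CPM after PBS and 317, 333 and 327 CPM after SCF (-0.21 ± 0.038, adjusted p = 0.0112) and was the only call among 30 oxidative stress genes, whose median was -0.00873. Among heat shock genes DNAJB1 rose (0.38 ± 0.071, adjusted p = 0.0138), and the median of the 30 tested was 0.047. EZH1 was called in 2, DNAJB1 in 3 and GCLC in 5 of the 6 leave-one-out fits, and exons of FGF14, GPR146, DNAJB4, GCLC and DNAJB1 overlap another gene.

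Several other lists had small numbers of calls or none, and the shares called over all genes were 2.12% higher and 0.775% lower. Of 27 histone acetylases and deacetylases 0 passed in the edgeR test or in DESeq2 (median -0.0136), 3 had an unadjusted p under 0.05, and 1 fell with the replicate 1 term. Of 41 autophagy and lysosome genes 1 rose (2.44%), ATG16L1 (0.36 ± 0.08, adjusted p = 0.0342), with a median of 0.0106. Of 32 genes of pause release and Mediator 1 rose (3.12%), MEPCE (0.25 ± 0.057, adjusted p = 0.042), with a median of 0.0302. Of 42 histone lysine methylases and demethylases, SUV39H2 (0.33 ± 0.062, adjusted p = 0.0144) and JMJD6 (0.55 ± 0.09, adjusted p = 0.00649) rose (4.76%) besides the fall of EZH1 (2.38%, median 0.0159). SRSF2 (0.20 ± 0.038, adjusted p = 0.0141) and SRSF7 (0.28 ± 0.068, adjusted p = 0.0478) rose among 28 splicing kinases and SR factors (7.14%, median 0.00137). Of 230 solute carriers 6 rose (2.61%, near the background) and 1 fell, led by the mitochondrial carrier SLC25A25 (0.64 ± 0.054, adjusted p = 9.33e-05). Of 34 tRNA synthetase genes, a list added later, 1 rose (2.94%), the mitochondrial MARS2 (0.64 ± 0.13, adjusted p = 0.0262), with a median of 0.0119. MEPCE and SRSF7 were called in 0, ATG16L1 and MARS2 in 1 and SUV39H2 in 2 of the 6 leave-one-out fits.

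Among genes called only with the replicate 1 term, several had replicate 1 set apart on both treatments. KLHDC8A was at 94.9, 64.5 and 65.4 CPM after PBS and 53.3, 42.5 and 38 CPM after SCF, with an adjusted p of 0.124 without and 1.38e-05 with the term (-0.74 ± 0.063). Replicate 1 was the highest on each treatment. FRAT2, an inhibitor of GSK3, was at 31.8, 43.7 and 42.5 CPM after PBS and 21.2, 28.2 and 29.95 CPM after SCF (adjusted p = 0.128 without and 7.14e-05 with the term), with replicate 1 the lowest on each. Its relative FRAT1, named after its value was seen, fell without the term as well (-0.65 ± 0.14, adjusted p = 0.0328) and held in 1 of the 6 leave-one-out fits. RNF43, a ligase that removes Wnt receptors, was at 17.4, 22.6 and 21.2 CPM after PBS and 11.4, 15.2 and 14.3 CPM after SCF (adjusted p = 0.0545 and 0.000182). SMC4, a condensin subunit, was at 574, 620.0 and 655 CPM after PBS and 509.7, 562 and 547 CPM after SCF (adjusted p = 0.116 and 0.00202).

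A further 10 genes with the smallest p among the additions had modest changes. SLC43A3, a purine transporter (0.29 ± 0.032, adjusted p = 9.01e-05), KBTBD2, a ligase adaptor (0.32 ± 0.037, 0.000138), and AP5B1, an adaptor of endosomal sorting (0.42 ± 0.048, 0.000152), rose with the term. C21orf58 (-0.32 ± 0.035, 9.25e-05), LHFPL2 (-0.52 ± 0.062, 0.000183), LOC728743 (-0.57 ± 0.075, 0.000393), KIF5A, a kinesin (-0.28 ± 0.042, 0.00119), LOC101929007 (-0.53 ± 0.087, 0.00205), NDOR1, a diflavin reductase (-0.28 ± 0.045, 0.00205), and METTL7A (-0.23 ± 0.038, 0.00218) fell with it, each given as log2 fold change ± SE and adjusted p in edgeR.

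Values of the same genes in sgEGR1 cells, which have control libraries of their own, stand beside these. The log2 fold change of SCF over PBS was 6.22 for EGR1, 3.09 for FOSL1, 2.44 for DUSP6, 0.94 for MYC, -1.03 for CCNG2 and -1.36 for PNRC1, against 4.66, 2.80, 2.39, 0.96, -1.09 and -1.40 in sgControl cells. EGR1 started lower there, at a mean of 1.38 CPM after PBS and 100.5 CPM after SCF, against 8.1 and 206 CPM. The direction was the same for all 6 genes. In edgeR's test of the difference in response between the guides 0 of 15492 genes passed, and 306 had an unadjusted p under 0.05. For the 6 genes the unadjusted p ran from 0.127 to 0.849, which does not show that the responses are alike.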

How the data were processed

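RNA-seq of sgControl HUDEP-2 cells given PBS or SCF was analysed, with 3 libraries per group that the study's methods call biological replicates. Reads were paired, and the authors aligned them with HISAT (hg38) and deposited estimated counts per gene from StringTie, not scaled for depth or length. All values were whole numbers. The labels and methods name different library kits, and the methods call the libraries strand-specific. The annotation release and whether counting used strand are not given in the sources used here. Floors (3 counts) cover counting error only.

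The filterByExpr function of edgeR 4.0.16 (R 4.3.3) kept 15492 of 54628 genes. TMM-scaled counts were tested with the quasi-likelihood F test in a model of the 4 groups, in which sgEGR1 libraries helped to estimate the spread. Their columns were taken as sgEGR1 because the labels hold no other construct. A gene was called when its Benjamini-Hochberg adjusted p was below 0.05, and a second model added a term for replicate 1 of every group. Alternatives included DESeq2 1.42.0, RLE factors, library totals, no filter and fewer libraries. The code was tested on simulated counts. Log2 ratios by replicate used a pseudocount of 0.1 CPM.

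Gene lists, members and tests were chosen with earlier results of these data known. Genes named were EGR1, FOSL1, DUSP6 and PNRC1, then, of the called genes that averaged 2 CPM or more and whose groups did not overlap, the 25 largest rises, the 20 largest falls and the 10 most abundant in each direction, up to 6 called (smallest p first) and 4 other members per list and direction, and the 12 with the smallest p per direction among genes called only with the replicate 1 term. Other names were added after their values were seen, and a few genes that this rule selects are not reported here. Exon overlaps came from GENCODE v44, and spans and promoters from RefSeq (GRCh38.p14).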

Additional observations from a re-analysis of the deposited data

How the results depend on the processing

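The called counts moved with the libraries used and with the model. Against 448 genes (328 higher, 120 lower), the replicate 1 term gave 1289 (818, 471), DESeq2 759 (528, 231) and DESeq2 with the term 1207 (765, 442). The 6 sgControl libraries alone gave 192 (145, 47), and 1053 (663, 390) with the term. Without the filter on low counts 329 were called (265, 64), with library totals in place of TMM 484, with RLE factors 445 and with replicates 2 and 3 alone 575 (401, 174). Requiring at least 1.5-fold left 115 (73, 42). Leaving out 1 library gave 194 genes (146 higher, 48 lower) at the least, without sgControl PBS replicate 3. The fewest lower calls were 47, without sgControl SCF replicate 3. With the replicate 1 term such fits gave at most 922 genes (610 higher, 312 lower), without sgControl PBS replicate 2. The most higher calls with the term were 619, without sgControl SCF replicate 3. A replicate block on the label numbers gave 1184 genes (756, 428). No label says that the numbers pair the samples, and residuals of same-numbered PBS and SCF libraries correlated at 0.2722, 0.00766 and 0.1081, so the block was not used elsewhere. With library totals the median of all genes was 0.0219, and 6 list medians between -0.0268 and -0.00264 turned positive (mRNA decay, Kit and EPO receptor signalling, erythroid transcription factors, oxidative stress, acetylases and numbered zinc fingers). Leaving out 1 library turned up to 8 list medians negative (without sgControl SCF replicate 1) and up to 4 positive (without sgControl PBS replicate 1).

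Of 165 called genes named in the text 74 were called under all 16 alternatives set at the outset, and 0 changed sign. Signs changed for 4 named genes that were not called. KIT was at 0.011 with replicates 2 and 3, 0.015 with library totals and 0.0020 without the filter, and ran from -0.064 to 0.034 over the leave-one-out fits of either model. ZFP36 was at 0.0050 with library totals and ran from -0.43 to 0.26 over these fits, DUSP1 from -0.20 to 0.45 and TPSAB1 from -0.45 to 0.59. The cause of these shifts was not tested.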

Other observations

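Beyond the lists, further genes that rose were picked after their values had been seen, so their values are descriptions. GEMIN4, of the complex that assembles small nuclear RNPs, was at 29.6, 28.6 and 29.8 CPM after PBS and 41.4, 39.2 and 43 CPM after SCF (0.49 ± 0.051, adjusted p = 0.000345). The ribosome biogenesis factors URB2 (0.56 ± 0.077, adjusted p = 0.00219) and BRIX1 (0.44 ± 0.077, adjusted p = 0.0106) rose. PPRC1, a coactivator of mitochondrial biogenesis, was at 37, 35.5 and 31.6 CPM after PBS and 70.1, 56.7 and 58.6 CPM after SCF (0.83 ± 0.081, adjusted p = 0.000228). TWNK, the mitochondrial DNA helicase (0.55 ± 0.08, adjusted p = 0.00322), SLC25A33, a mitochondrial pyrimidine nucleotide carrier (0.91 ± 0.15, adjusted p = 0.00813), COA7, an assembly factor of respiratory complexes (0.54 ± 0.056, adjusted p = 0.000345), and GRPEL2, a cochaperone of mitochondrial import (0.52 ± 0.07, adjusted p = 0.00173), rose too. Nuclear genes for mitochondria were not counted as a list. These 5 genes had no overlap between groups, as had all 448 called genes. They were called in 6 of the 6 leave-one-out fits, as were 128 of the 328 genes that rose.

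Other single genes were picked in the same way, with no list behind them. YTHDF3 (0.45 ± 0.06, adjusted p = 0.00173) and YTHDF2 (0.33 ± 0.04, adjusted p = 0.000873), readers of N6-methyladenosine, WTAP, a subunit of the methylase (0.21 ± 0.04, adjusted p = 0.0159), and MAT2A, which makes the methyl donor (0.66 ± 0.13, adjusted p = 0.0175), rose. MAT2A was at 140.0, 115 and 118 CPM after PBS and 231, 175 and 185 CPM after SCF, highest in replicate 1 on each treatment. G3BP1 (0.21 ± 0.044, adjusted p = 0.0291) and G3BP2 (0.30 ± 0.056, adjusted p = 0.0146), which nucleate stress granules, rose by 1.15-fold and 1.23-fold. At the cell surface MYADM was at 53.4, 62.1 and 59.8 CPM after PBS and 97.5, 123 and 110.5 CPM after SCF (0.92 ± 0.11, adjusted p = 0.000823), and TNFRSF10A, a death receptor for TRAIL, was at 5.06, 4.77 and 4.85 CPM after PBS and 11.7, 8.53 and 7.57 CPM after SCF (0.92 ± 0.17, adjusted p = 0.0114). CDC6, which licenses replication origins, was at 44.5, 46 and 44.3 CPM after PBS and 60.5, 57.2 and 60.1 CPM after SCF (0.40 ± 0.05, adjusted p = 0.00108), while CDT1, its partner in licensing, was at 282, 311 and 299.7 CPM after PBS and 252, 267 and 217 CPM after SCF (-0.28 ± 0.067, adjusted p = 0.0464). Of the genes in this paragraph G3BP1 was called in 0, MAT2A and WTAP in 3, CDT1 in 2 and TNFRSF10A and G3BP2 in 4 of the 6 leave-one-out fits. Exons of GEMIN4, TWNK and GRPEL2 above and of YTHDF2, WTAP, MAT2A, G3BP1, G3BP2, MYADM and TNFRSF10A overlap another gene.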
